A study of Mus musculus with 12 samples.

Results

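The 10 genes described here encode chemokines: Ccl2, Ccl5, Ccl7, Cxcl1, Cxcl5, Cxcl9, Cxcl10, Cxcl12, Cxcl14 and Cx3cl1. They were taken by gene symbol, and each was read by 1 probe set assigned to that symbol alone, so all 10 were measured among 22180 genes. The samples were adipocyte cultures made from inguinal fat precursors of mice, read on 12 arrays in 4 groups of 3. Every culture, controls included, carried the genotype R26Cre/Prdm16floxEx9, in which a Cre gene at the Rosa26 locus, a site active in most cell types, is joined with a floxed exon of Prdm16. The EtOH group received ethanol for 3 days while the precursors grew, and the 4OHT group received 1 uM 4-hydroxytamoxifen, the ligand used to switch on tamoxifen-inducible Cre, over the same time. The groups EtOH_Rosi and 4OHT_Rosi had the same treatments and also 1 uM rosiglitazone, an agonist of PPARγ, at differentiation. All 4 groups were differentiated in 10% FBS with insulin (20 nM), T3 (1 nM), dexamethasone (1 uM), indomethacin (125 nM) and isobutylmethylxanthine (0.5 uM). No group combined 4-hydroxytamoxifen with cells lacking the alleles, so the drug itself, Cre activity and loss of the Prdm16 exon cannot be told apart. Nothing in the labels says whether replicates were separate cultures or animals, so p-values rest on array-to-array spread, part or all of which may be technical.

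Chemokines are small secreted proteins that bind receptors coupled to G proteins and direct the migration of leukocytes and other cells. In fat they are made by adipocytes, fibroblast-like precursors, endothelial cells and macrophages, and Ccl2 is known for drawing monocytes into the tissue in obesity. Their genes respond in particular to interferons, acting through STAT and IRF factors on interferon-stimulated response elements (ISRE), and to TNF or interleukin 1, acting through NF-kappaB.

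Promoter windows from 250 bases before to 50 bases after the annotated start were found for 6 of the 10 genes in RefSeq (GRCm38.p6). There was no entry for Ccl2, Ccl5, Ccl7 or Cxcl5. A search on both strands used GAAA and GAAA with any 2 bases between them for the ISRE, GGGA and TTCC with any 2 bases between them for the NF-kappaB site, and TATAAA for the TATA box. Of 32851 mouse promoters of the same length, 3.44% held the first, 1.47% the second and 13.6% the third. The 4 windows below are shown because Cxcl10, Cxcl1 and Cxcl14 hold an ISRE or NF-kappaB match, and because Cxcl9, which is also known as interferon-inducible, holds neither. They lie at chr5:92348840-92349139 (minus strand) for Cxcl10, chr5:92328030-92328329 (minus) for Cxcl9, chr5:90890995-90891294 (plus) for Cxcl1 and chr13:56296502-56296801 (minus) for Cxcl14. Each runs 5′ to 3′ along its gene, with motif matches in capitals.
Cxcl10: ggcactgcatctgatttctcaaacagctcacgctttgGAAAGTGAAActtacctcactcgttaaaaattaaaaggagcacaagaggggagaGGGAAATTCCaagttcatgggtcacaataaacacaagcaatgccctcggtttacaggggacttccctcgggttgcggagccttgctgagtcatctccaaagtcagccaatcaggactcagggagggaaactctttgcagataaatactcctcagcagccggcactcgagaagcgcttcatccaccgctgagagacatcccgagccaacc
Cxcl9: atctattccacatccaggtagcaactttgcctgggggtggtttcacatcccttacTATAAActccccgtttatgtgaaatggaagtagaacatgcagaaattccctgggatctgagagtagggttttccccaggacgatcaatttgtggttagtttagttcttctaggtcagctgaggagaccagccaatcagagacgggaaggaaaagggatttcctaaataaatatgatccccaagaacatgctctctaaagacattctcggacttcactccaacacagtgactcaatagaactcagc
Cxcl1: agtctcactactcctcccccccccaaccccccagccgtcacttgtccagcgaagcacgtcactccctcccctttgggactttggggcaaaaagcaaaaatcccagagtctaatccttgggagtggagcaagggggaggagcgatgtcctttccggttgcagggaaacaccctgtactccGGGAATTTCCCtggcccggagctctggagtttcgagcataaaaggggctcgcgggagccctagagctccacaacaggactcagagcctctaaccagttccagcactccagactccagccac
Cxcl14: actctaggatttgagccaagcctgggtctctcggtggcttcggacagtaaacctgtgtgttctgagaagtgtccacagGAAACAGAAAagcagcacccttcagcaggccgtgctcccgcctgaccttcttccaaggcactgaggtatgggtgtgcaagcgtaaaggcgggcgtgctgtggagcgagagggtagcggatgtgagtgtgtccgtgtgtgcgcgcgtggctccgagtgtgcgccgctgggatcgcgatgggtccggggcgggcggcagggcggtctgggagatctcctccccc
In the Cxcl10 window the ISRE match GAAAGTGAAA begins 213 bases before the start and the NF-kappaB match GGGAAATTCC begins 159 bases before it. The Cxcl1 window holds a pair of overlapping NF-kappaB matches, 1 on each strand, 71 and 70 bases before the start. Cxcl14 has an ISRE match, GAAACAGAAA, 172 bases before the start used for its window. The RefSeq gene Cxcl14 spans 56288643 to 56296811, however, so on this minus strand the whole window lies inside the annotated gene. This match is therefore not shown to lie upstream of the gene. In the Cxcl9 window the capitals mark a TATAAA 195 bases before the start, and the letters searched for the ISRE and NF-kappaB are not in these 300 bases. Neither of those was found for Cx3cl1, whose TATAAA lies 6 bases before the start, nor for Cxcl12, which matched no motif. A match is a description of letters, and binding was not measured. Other patterns were not searched, so the Cxcl9 window is not shown to lack elements that respond to interferon. Its TATAAA is not shown to act as a TATA box.

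The values are log2 probe set levels, and the array medians lay between 5.97 and 6.05. Replicates within a group correlated at 0.996 to 0.998 over all genes. Replicate 3 of 4OHT_Rosi stood apart on the third principal component (5.67% of the variance), at 16.03 against -8.95 to 7.98 for the other 11 arrays. Prdm16, the targeted gene and a regulator of thermogenic fat identity, was 7.20, 7.46 and 7.44 in EtOH_Rosi and 6.63, 6.70 and 6.63 in 4OHT_Rosi, a difference of -0.71 ± 0.10 (log2 ± SE, adjusted p = 0.0006463). Without rosiglitazone the Prdm16 arrays of 4OHT and EtOH overlapped (-0.17 ± 0.10, adjusted p = 0.4546). No source used here places its probe set inside or outside the floxed exon, and the level is therefore no measure of excision. Adipocyte markers were high, with Fabp4 at 13.52 to 13.66 and Adipoq at 10.50 to 11.11 over the 12 arrays. Fibroblast and macrophage markers ranged widely, from Dlk1 at 5.55 to 5.96 to Pdgfra at 10.24 to 12.08 among the first and from Aif1 at 5.36 to 5.6 to Cd68 at 10.69 to 11.45 among the second, while Cd3d, of T cells, lay at 4.93 to 5.33 and Ly6g, of neutrophils, at 4.79 to 5.63.

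After 4-hydroxytamoxifen Cxcl9 and Ccl5 were higher both without and with rosiglitazone, and rosiglitazone after ethanol lowered most of the 10 genes. A gene was called where limma's adjusted p over all 22180 genes was under 0.05. Without rosiglitazone, 3 of the 10 were called higher in 4OHT than in EtOH (Cxcl9, Ccl5 and Cxcl10) and 0 lower, where 3.91% of all genes were called, 2.13% higher and 1.79% lower. With rosiglitazone, 5 of the 10 were higher in 4OHT_Rosi than in EtOH_Rosi (Cxcl9, Ccl2, Ccl5, Ccl7 and Cxcl1) and 0 lower, against 8.03% of all genes called, 4.65% higher and 3.38% lower. Rosiglitazone after ethanol lowered 8 of the 10, all but Ccl5 and Cxcl10, and raised 0, where 30.7% of all genes were called, 16.3% lower and 14.4% higher. After 4-hydroxytamoxifen it lowered 4, Ccl2, Ccl5, Ccl7 and Cxcl12, and raised 0, against 23.7% of all genes called, 12.1% lower and 11.6% higher. At an unadjusted p under 0.05 the counts in the directions at 0 were 1, 0, 0 and 0 in that order. The median log2 difference over the 10 genes was 0.05, 0.66, -0.59 and -0.55 in these 4 comparisons, and over all genes it was 0, -0.007, 0.013 and 0. Arrays of the groups compared did not overlap for 6, 5, 8 and 3 of the 10 genes in the same order, beside 22.9%, 21.8%, 40.7% and 36% of all genes. The difference between the 4-hydroxytamoxifen effects with and without rosiglitazone, an interaction term, was called for 0 of the 10, where 1.01% of all genes were called, 0.523% higher and 0.482% lower. At an unadjusted p under 0.05 that term was positive for 4 and negative for 1 of the 10, and 14% of all genes passed. These comparisons share groups, EtOH_Rosi for instance being the control of 1 and the treated group of another, so their values are set side by side below and not counted as separate evidence.

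**Figure D1:**
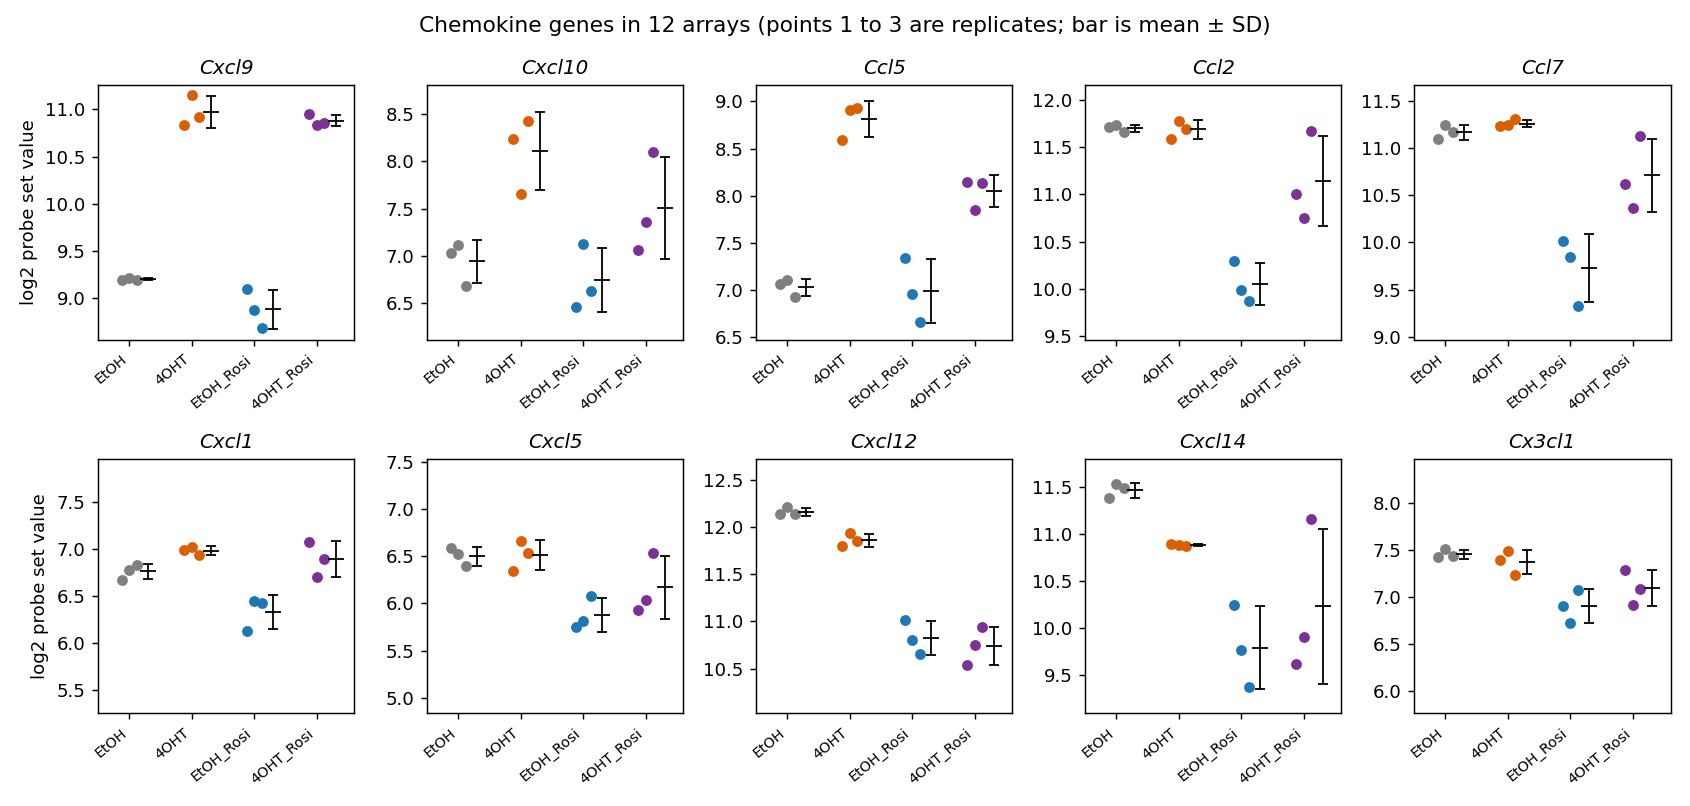
Log2 probe set values of the 10 chemokine genes (y axis, a separate range in each panel) in the groups EtOH, 4OHT, EtOH_Rosi and 4OHT_Rosi (x axis), with 1 point per array and a bar for the mean ± SD of 3 arrays. Cxcl9 sits at 10.83 or above in all 6 arrays treated with 4-hydroxytamoxifen and at 9.21 or below in the other 6, while Cxcl12 separates by rosiglitazone and Cxcl14 has a single high array, 11.16, in 4OHT_Rosi.

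Cxcl9 and Cxcl10 are ligands of the receptor CXCR3 on activated T and NK cells and are induced by interferons. Cxcl9 was 9.19, 9.21 and 9.19 in EtOH, 10.83, 11.15 and 10.92 in 4OHT, 9.10, 8.87 and 8.68 in EtOH_Rosi, and 10.95, 10.83 and 10.86 in 4OHT_Rosi. All 6 arrays with 4-hydroxytamoxifen lay above all 6 without it, and the 2 high groups overlapped each other. The rise was 1.77 ± 0.10 on the log2 scale (3.41-fold, adjusted p = 3.363e-06) without rosiglitazone and 2 ± 0.10 (3.99-fold, adjusted p = 3.669e-07) with it. These rises differed by 0.23 ± 0.14 (adjusted p = 0.5213, 95% interval -0.08 to 0.53). With rosiglitazone after ethanol Cxcl9 fell by 0.31 (adjusted p = 0.02756), a change that lost its call without any 1 of the EtOH arrays or without EtOH_Rosi 2 or 3 (adjusted p up to 0.127). After 4-hydroxytamoxifen its difference was -0.09 (95% interval -0.30 to 0.13, adjusted p = 0.6155).

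Cxcl10, whose promoter carries both the ISRE and the NF-kappaB letters, was 7.03, 7.11 and 6.68 in EtOH and 8.24, 7.65 and 8.43 in 4OHT. It was 6.46, 7.12 and 6.63 in EtOH_Rosi and 7.06, 7.36 and 8.10 in 4OHT_Rosi. Without rosiglitazone every 4OHT array was above every EtOH array, and with it the arrays overlapped. Cxcl10 rose by 1.17 ± 0.26 (2.25-fold, adjusted p = 0.02119) without rosiglitazone, a call lost without EtOH 1 (adjusted p = 0.0504), EtOH 3 (0.099), 4OHT 1 (0.0872) or 4OHT 3 (0.107). With rosiglitazone the difference was 0.77 ± 0.26 (adjusted p = 0.09131, 95% interval 0.22 to 1.32), which reached 0.99 and a call (adjusted p = 0.0415) without 4OHT_Rosi 1 and fell to 0.47 (adjusted p = 0.299) without 4OHT_Rosi 3. The interaction for Cxcl10 was -0.40 ± 0.36 (adjusted p = 0.7005), an interval of -1.18 to 0.39, and -0.693 (adjusted p = 0.394) without 4OHT_Rosi 3. Its rosiglitazone differences were -0.20 after ethanol (adjusted p = 0.6303) and -0.60 after 4-hydroxytamoxifen (adjusted p = 0.118), the second reaching -0.90 (adjusted p = 0.0122) without 4OHT_Rosi 3 and -0.83 (adjusted p = 0.0435) without 4OHT 2.

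Ccl5, also named RANTES, attracts T cells and monocytes and responds to both interferon and NF-kappaB signals. Its arrays were 7.06, 7.11 and 6.93 in EtOH, 8.59, 8.91 and 8.93 in 4OHT, 7.34, 6.96 and 6.66 in EtOH_Rosi, and 8.15, 7.85 and 8.14 in 4OHT_Rosi. The groups stood in 3 steps, 4OHT highest, 4OHT_Rosi next and both ethanol groups lowest, and only the ethanol groups overlapped. Ccl5 rose by 1.78 ± 0.15 (3.43-fold, adjusted p = 3.079e-05) without rosiglitazone and by 1.06 ± 0.15 (2.09-fold, adjusted p = 0.0006463) with it. The smaller rise with rosiglitazone was not called as a difference (interaction -0.72 ± 0.21, unadjusted p = 0.004287, adjusted p = 0.1326). Rosiglitazone lowered Ccl5 after 4-hydroxytamoxifen, by 0.76 ± 0.15 (adjusted p = 0.001607), and after ethanol its difference was -0.05 (95% interval -0.36 to 0.27, adjusted p = 0.8633). Cxcl11, the remaining CXCR3 ligand, was not called in any of these 4 comparisons. Its level was low, 5.41 to 5.99 over the 12 arrays, where the median gene mean was 6.6. Its 4-hydroxytamoxifen differences by limma were 0.31 without rosiglitazone (unadjusted p = 0.00699, adjusted p = 0.1073) and 0.25 with it (0.02263 and 0.1513).

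**Figure D2:**
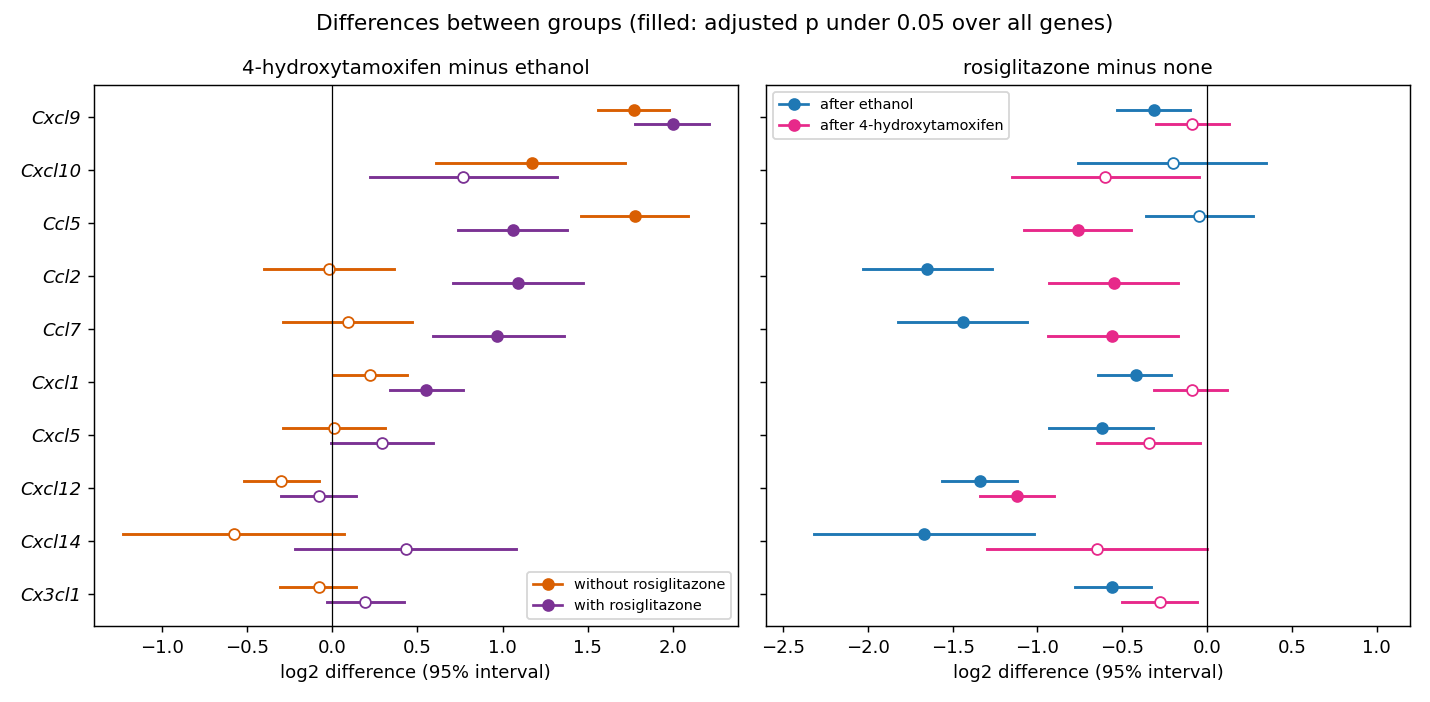
Log2 differences (x axis) for each chemokine gene (y axis) with 95% intervals from the fit over 12 arrays, 4-hydroxytamoxifen minus ethanol on the left and rosiglitazone minus none on the right. Filled points passed an adjusted p of 0.05 over all genes. Cxcl9 and Ccl5 are filled on the left in both conditions, Ccl2 and Ccl7 are filled with rosiglitazone and not without it, and on the right 8 genes are filled and below 0 after ethanol.

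Ccl2 and Ccl7 attract monocytes through CCR2 and are neighbours on chromosome 11. Ccl2 was 11.71, 11.74 and 11.66 in EtOH, 11.59, 11.78 and 11.69 in 4OHT, 10.29, 9.99 and 9.87 in EtOH_Rosi, and 11, 10.75 and 11.67 in 4OHT_Rosi. Without rosiglitazone the 2 groups overlapped, whereas with it every 4OHT_Rosi array was above every EtOH_Rosi array. The differences were -0.02 ± 0.18 (95% interval -0.40 to 0.36, adjusted p = 0.9803) without rosiglitazone and 1.09 ± 0.18 (2.13-fold, adjusted p = 0.001837) with it. The interaction of 1.11 ± 0.25 missed the threshold (adjusted p = 0.05851). It was called without EtOH_Rosi 1 (1.23, adjusted p = 0.0386), 4OHT_Rosi 2 (1.302, 0.0233) or 4OHT_Rosi 3 (0.84, 0.0392). Rosiglitazone lowered Ccl2 by 1.65 ± 0.18 after ethanol (3.15-fold, adjusted p = 8.072e-06). After 4-hydroxytamoxifen the fall was 0.55 ± 0.18 (adjusted p = 0.03836) with overlapping arrays, a call kept without 4OHT_Rosi 3 (-0.81, adjusted p = 0.000187) or any 1 of the EtOH_Rosi arrays. It was lost without any 1 of the EtOH arrays (adjusted p 0.0501 to 0.0507) or the 4OHT arrays (0.0605 to 0.119), and without 4OHT_Rosi 1 (0.131) or 2 (-0.35, 0.166).

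Ccl7 was 11.10, 11.25 and 11.17 in EtOH, 11.23, 11.25 and 11.31 in 4OHT, 10.02, 9.85 and 9.33 in EtOH_Rosi, and 10.62, 10.37 and 11.13 in 4OHT_Rosi. The EtOH_Rosi arrays were below all others, and among the 4OHT_Rosi arrays replicate 3 alone reached the EtOH range. For Ccl7 the 4-hydroxytamoxifen difference was 0.09 ± 0.18 (adjusted p = 0.8815, 95% interval -0.29 to 0.47) without rosiglitazone and 0.97 ± 0.18 (1.96-fold, adjusted p = 0.004126) with it, and the interaction was 0.88 ± 0.25 (adjusted p = 0.123). Without 4OHT_Rosi 3 the Ccl2 and Ccl7 differences under rosiglitazone were 0.83 (adjusted p = 0.00117) and 0.76 (adjusted p = 0.0121). Rosiglitazone lowered Ccl7 by 1.44 ± 0.18 after ethanol (2.71-fold, adjusted p = 2.68e-05) and by 0.56 ± 0.18 after 4-hydroxytamoxifen (adjusted p = 0.03605). The second call was lost without any 1 of the 4OHT arrays or without 4OHT_Rosi 1 or 2 (adjusted p up to 0.157). Probe sequences were not used here, and cross-hybridisation between similar ligand genes such as these was not tested.

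By RefSeq order (GRCm38.p6) Ccl2 and Ccl7 are followed on chromosome 11 by Ccl11, Ccl12, Ccl8 and Ccl1, and Ccl5 lies in a separate group with Ccl9, Ccl6, Ccl3 and Ccl4. These neighbours are named for their position, some of them after their values were seen. Ccl11, or eotaxin, which attracts eosinophils through CCR3, was 8.50, 8.31 and 7.91 in EtOH_Rosi and 9.34, 9.49 and 9.92 in 4OHT_Rosi, a rise of 1.34 ± 0.15 (adjusted p = 0.0001359). Ccl8 also rose under rosiglitazone, by 0.67 ± 0.17 (adjusted p = 0.02806), a call lost without EtOH_Rosi 2 or 3 or 4OHT_Rosi 2 or 3 (adjusted p up to 0.108). Ccl12, a mouse ligand of CCR2, differed by 0.46 and Ccl1 by -0.24, neither called. On the far side of the gap, Ccl6 and Ccl9, mouse ligands of CCR1, rose by 0.48 and 0.44 (adjusted p = 0.001691 and 0.00113), while Ccl3 and Ccl4 differed by 0.14 and 0.09 and were not called. Without rosiglitazone, Ccl5 was the single gene of these 11 called higher and Ccl3 the single one called lower (-0.60, adjusted p = 0.005073). Rosiglitazone after ethanol lowered all of them but Ccl1 and Ccl5, with differences of -1.80 for Ccl11, -1.55 for Ccl8, -1.14 for Ccl3, -1.11 for Ccl6 and -1.08 for Ccl12 (adjusted p at most 0.0001666).

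**Figure D3:**
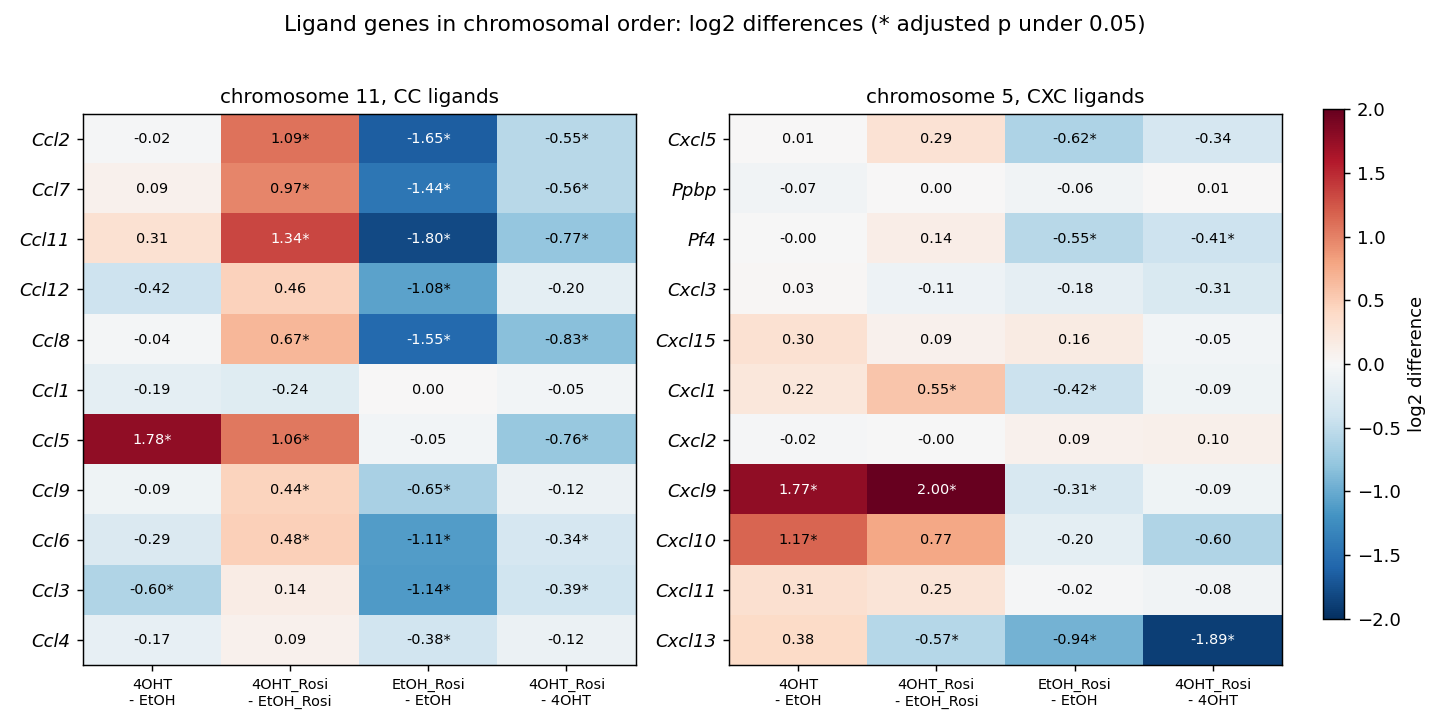
Log2 differences of chemokine ligand genes in their order along chromosome 11 (left) and chromosome 5 (right), for 4 comparisons (columns), with an asterisk where the adjusted p was under 0.05. Ccl2, Ccl7, Ccl11 and Ccl8 are red in 4OHT_Rosi against EtOH_Rosi and blue in EtOH_Rosi against EtOH, while Cxcl9 and Ccl5 are red in both 4-hydroxytamoxifen columns. The columns share groups.

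Cxcl1 and Cxcl5 attract neutrophils through CXCR2. Cxcl1, with its pair of NF-kappaB matches, was 6.67, 6.77 and 6.83 in EtOH, 6.99, 7.02 and 6.93 in 4OHT, 6.13, 6.45 and 6.42 in EtOH_Rosi, and 7.07, 6.70 and 6.89 in 4OHT_Rosi. In both conditions every 4-hydroxytamoxifen array was above every ethanol array. The rise under rosiglitazone was 0.55 ± 0.10 (1.47-fold, adjusted p = 0.003599, and 0.55 without 4OHT_Rosi 3). In cultures without it, 4OHT exceeded EtOH by 0.22 ± 0.10 (adjusted p = 0.2828). The interaction was 0.33 ± 0.14 (adjusted p = 0.3004). Rosiglitazone lowered Cxcl1 by 0.42 ± 0.10 after ethanol (adjusted p = 0.004329), and after 4-hydroxytamoxifen the difference was -0.09 (95% interval -0.31 to 0.12, adjusted p = 0.5822). The lowest group was therefore EtOH_Rosi, and the other groups overlapped with their neighbours in order of mean.

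Cxcl5 was 6.59, 6.52 and 6.40 in EtOH, 6.34, 6.66 and 6.54 in 4OHT, 5.75, 5.81 and 6.08 in EtOH_Rosi, and 5.93, 6.04 and 6.54 in 4OHT_Rosi. Its only groups without overlap were EtOH_Rosi against each of the groups without rosiglitazone. The fall with rosiglitazone after ethanol was 0.62 ± 0.14 (1.54-fold, adjusted p = 0.003427). After 4-hydroxytamoxifen the Cxcl5 difference was -0.34 ± 0.14 (adjusted p = 0.1021), and -0.53 (adjusted p = 0.00363) without 4OHT_Rosi 3. The 4-hydroxytamoxifen differences, 0.01 without rosiglitazone (95% interval -0.29 to 0.31) and 0.29 with it (-0.01 to 0.59, adjusted p = 0.2669), were not called, and the second was 0.105 (adjusted p = 0.695) without 4OHT_Rosi 3. On chromosome 5 the genes between Cxcl5 and Cxcl1 in RefSeq order are Ppbp, Pf4, Cxcl3 and Cxcl15, with Cxcl2 after Cxcl1, and of these Pf4 alone was called, lower with rosiglitazone (-0.55 after ethanol and -0.41 after 4-hydroxytamoxifen).

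Cxcl12, or SDF-1, holds blood and progenitor cells in place through the receptor CXCR4. It was 12.14, 12.21 and 12.14 in EtOH, 11.80, 11.94 and 11.85 in 4OHT, 11.01, 10.80 and 10.65 in EtOH_Rosi, and 10.54, 10.75 and 10.94 in 4OHT_Rosi. Every array with rosiglitazone was lower than every array without it, and the 2 rosiglitazone groups overlapped. Cxcl12 fell by 1.34 ± 0.10 (2.54-fold, adjusted p = 4.618e-07) after ethanol and by 1.12 ± 0.10 (2.17-fold, adjusted p = 3.27e-06) after 4-hydroxytamoxifen, with an interaction of 0.22 ± 0.14 (adjusted p = 0.5371, and 0.125 without 4OHT_Rosi 3). The 4OHT arrays were all below the EtOH arrays, by 0.30 ± 0.10, which was not called (adjusted p = 0.1396) in the fit of 4 groups and was called in a fit of these 2 groups alone (adjusted p = 0.0202). Under rosiglitazone the 4-hydroxytamoxifen difference was -0.08 (95% interval -0.30 to 0.14), or -0.175 (adjusted p = 0.386) without 4OHT_Rosi 3. Cxcr4, the receptor, fell with rosiglitazone too, with differences of -1.08 after ethanol (adjusted p = 0.000109) and -1.16 after 4-hydroxytamoxifen (adjusted p = 0.0001026). Ackr3, which removes Cxcl12 from the surroundings, fell likewise, at -0.31 (adjusted p = 0.02831, a call lost without EtOH 2 or 3 or EtOH_Rosi 2 or 3) and -0.52 (adjusted p = 0.001522).

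Cxcl14 attracts macrophages and other leukocytes, and in mice it is released by brown adipocytes. Its arrays were 11.38, 11.53 and 11.48 in EtOH, 10.89, 10.88 and 10.87 in 4OHT, 10.24, 9.77 and 9.37 in EtOH_Rosi, and 9.62, 9.90 and 11.16 in 4OHT_Rosi. The groups without rosiglitazone were tight, and 4OHT_Rosi 3 lay apart from the other arrays of its group, higher than all 4OHT arrays. The fall with rosiglitazone after ethanol was 1.67 ± 0.30 (3.18-fold, adjusted p = 0.0006522). After 4-hydroxytamoxifen the difference was -0.65 ± 0.30 (adjusted p = 0.1496), and without 4OHT_Rosi 3 it was -1.12 (adjusted p = 0.000547). Cxcl14 was lower in all 4OHT arrays than in all EtOH arrays, by 0.58 ± 0.30 (adjusted p = 0.3788) with the spread shared over 4 groups and adjusted p = 0.000665 when these 2 groups were fitted alone. Under rosiglitazone the 4-hydroxytamoxifen difference of 0.43 ± 0.30 (adjusted p = 0.4751) turned to -0.03 without 4OHT_Rosi 3.

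Cx3cl1, or fractalkine, is made as a membrane-bound protein whose chemokine domain binds CX3CR1 on monocytes. It was 7.42, 7.51 and 7.43 in EtOH, 7.39, 7.49 and 7.23 in 4OHT, 6.90, 6.72 and 7.07 in EtOH_Rosi, and 7.28, 6.91 and 7.08 in 4OHT_Rosi. The EtOH_Rosi arrays were below all arrays without rosiglitazone, and 4OHT_Rosi overlapped with 4OHT. Cx3cl1 fell with rosiglitazone by 0.56 ± 0.10 after ethanol (1.47-fold, adjusted p = 0.0008548), and after 4-hydroxytamoxifen the difference was -0.28 ± 0.10 (adjusted p = 0.07049), called without 4OHT 3 (-0.35, adjusted p = 0.0481), EtOH_Rosi 3 (-0.28, 0.0498) or 4OHT_Rosi 1 (-0.38, 0.023). Its 4-hydroxytamoxifen differences, -0.08 and 0.19, were not called (adjusted p = 0.7965 and 0.3256). The array 4OHT_Rosi 3 was the highest of its group for 6 of the 10 genes, Ccl2, Ccl7, Cxcl5, Cxcl10, Cxcl12 and Cxcl14, and EtOH 2 was the highest of its group for 8. Without 4OHT_Rosi 3 the number called lower in 4OHT_Rosi than in 4OHT was 7 in place of 4, and the 5 called higher against EtOH_Rosi stayed at 5.

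The rosiglitazone falls came with lower markers of several cell types. Beside the counts below, 16.3% of all genes were called lower and 14.4% higher after ethanol. After 4-hydroxytamoxifen these shares were 12.1% and 11.6%. Of 11 measured fibroblast and progenitor markers 10 fell after ethanol and 10 after 4-hydroxytamoxifen, with medians of -1.24 and -0.89. The list's mean level was 10.49 to 10.64 over the 6 arrays without rosiglitazone and 9.42 to 9.79 over the 6 with it. Summed on the linear scale the list was 36747 to 38642 in EtOH, 31907 to 33092 in 4OHT, 19477 to 22229 in EtOH_Rosi and 17663 to 22355 in 4OHT_Rosi. Pdgfra, a receptor of adipose precursors, fell (-1.24 and -1.10), as did Pi16 of uncommitted progenitors (-1.41 and -2.08). Among 15 macrophage and leukocyte markers 11 fell after ethanol (median -0.52) and 8 after 4-hydroxytamoxifen (median -0.28, and 5 without 4OHT 1 or without 4OHT_Rosi 1). Their mean level was 8.49 to 8.93 without rosiglitazone and 8.18 to 8.32 with it, and Cd68 fell (-0.56 and -0.43). The macrophage sums were 12554 to 14363 in EtOH, 11149 to 12950 in 4OHT, 8721 to 9640 in EtOH_Rosi and 9046 to 9495 in 4OHT_Rosi. Endothelial markers fell in 7 and 6 of 7 cases and smooth muscle markers in 7 and 6 of 7. Of the T and NK cell markers Cd4 fell after ethanol (-0.29, lost without EtOH 1 or 3 or EtOH_Rosi 1 or 2) and 0 after 4-hydroxytamoxifen, and of the neutrophil markers S100a8 fell in both backgrounds (-0.42 and -0.59) and Csf3r after ethanol (-0.18). That neutrophil count of 2 was 1 without EtOH 3 or EtOH_Rosi 2 or 3 and 0 without EtOH_Rosi 1. Levels of Cd4 (5.35 to 5.97), S100a8 (4.71 to 5.74) and Csf3r (5.87 to 6.16) were low, where the median gene mean was 6.6. Adipocyte markers went both ways, with 9 of 14 higher and 3 lower after ethanol and 6 higher and 3 lower after 4-hydroxytamoxifen, Cidec of the lipid droplet rising (1.89 and 2.19) and leptin, Lep, falling (-3.57 and -3.37). In such bulk RNA fewer cells of a type and less RNA per cell cannot be told apart, and the part of these cell types in the chemokine falls was not tested.

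The same marker lists were read beside the 4-hydroxytamoxifen rises. The shares over all genes were 2.13% higher and 1.79% lower without rosiglitazone, and 4.65% higher and 3.38% lower with it. Of 9 T and NK cell markers 0 were called in either condition by limma, with 1 and 0 at an unadjusted p under 0.05, and their mean stayed at 4.99 to 5.13 on all 12 arrays. Neutrophil markers (6 measured) were called in 0 cases as well, with 1 in each condition at an unadjusted p under 0.05 and 1 called higher without rosiglitazone when EtOH 1 was left out. Their means were 5.46 to 5.65. In 4OHT against EtOH, 2 of 15 macrophage markers were lower and 0 higher, a count of 1 without any 1 of the EtOH arrays and of 0 without 4OHT 2 or 3. With rosiglitazone 1 was lower, and 0 were without EtOH 2, 4OHT 2 or any 1 array of the groups compared. At an unadjusted p under 0.05 the macrophage counts were 0 higher and 6 lower without rosiglitazone and 3 higher and 2 lower with it. Fibroblast markers gave 1 higher (Pi16, 1.02) and 1 lower (Pdgfra, -0.53) without rosiglitazone, the second count being 2 without 4OHT_Rosi 3. Under rosiglitazone they gave 0 higher and 2 lower, with 0 lower and 1 higher without EtOH_Rosi 1, 0 lower and 2 higher without 4OHT_Rosi 1, and 1 lower without EtOH_Rosi 3, 4OHT_Rosi 2 or 4OHT_Rosi 3. Adipocyte markers gave 3 higher and 1 lower without rosiglitazone (0 higher without EtOH 2 or 3 or 4OHT 1 or 2) and 1 higher with it (2 without EtOH_Rosi 2 or 4OHT_Rosi 1). Smooth muscle markers were 2 higher without rosiglitazone (1 without EtOH 1, 4OHT 1 or 4OHT 2), and 3 higher and 1 lower with it (5 higher without EtOH_Rosi 1, 0 lower without 4OHT_Rosi 2). Endothelial markers were 0 of 7 and 1 of 7 higher, the latter Kdr at 0.49. Their part in the chemokine rises was not tested.

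**Figure D4:**
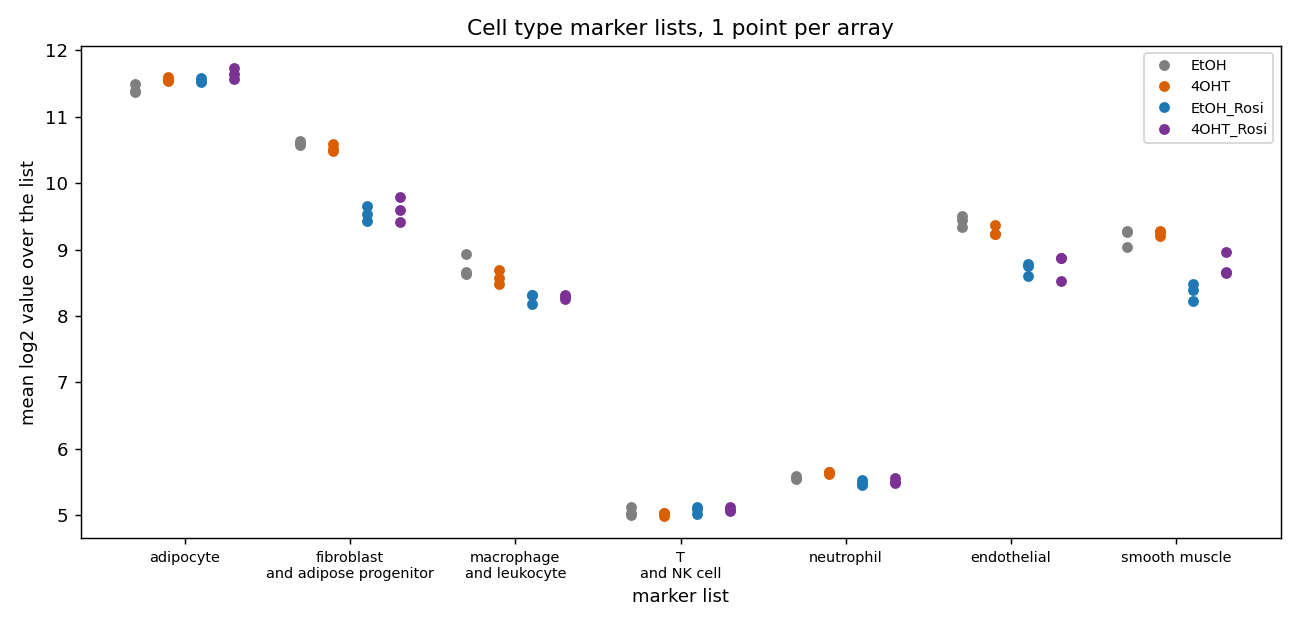
Mean log2 value (y axis) of 7 cell type marker lists (x axis), with 1 point per array coloured by group. The fibroblast and progenitor list sits at 10.49 to 10.64 without rosiglitazone and at 9.42 to 9.79 with it, while the T and NK cell list stays between 4.99 and 5.13 on all arrays.

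Some of the factors that carry interferon signals were higher after 4-hydroxytamoxifen. Irf7, which drives type I interferon genes, was 8.21, 8.66 and 8.17 in EtOH and 10.57, 10.79 and 10.60 in 4OHT, a rise of 2.31 ± 0.14 (adjusted p = 4.013e-06). Under rosiglitazone it rose by 2.23 ± 0.14 (adjusted p = 1.654e-06). Usp18, which removes ISG15 and damps the interferon receptor, rose by 1.75 and 2.18, and Stat2, which joins Irf9 in the complex that binds the ISRE, by 0.94 and 1.08. Of 18 measured factors 5 were higher and 0 lower without rosiglitazone and 4 higher and 0 lower with it, where 1 was lower in each at an unadjusted p under 0.05. The list medians were -0.01 and 0.05, and 2.13% and 4.65% of all genes were called higher. Irf9 rose by 0.47 and 0.88, the first call being lost without EtOH 1, EtOH 3 or any 1 of the 4OHT arrays (adjusted p up to 0.0831). Irf1 rose by 0.29 without rosiglitazone (adjusted p = 0.04343), a call lost without any 1 of the EtOH or 4OHT arrays or EtOH_Rosi 2 or 3. Without any 1 of EtOH 1, EtOH 3 or the 4OHT arrays the count of 5 was 3, and 1 factor was called lower without 4OHT_Rosi 3. Rosiglitazone lowered 9 of the 18 after ethanol (median -0.38) and 6 after 4-hydroxytamoxifen (median -0.07), beside 16.3% and 12.1% of all genes. Among the lowered factors was Irf2 (-0.46 and -0.47). Rosiglitazone raised 0 by limma, or 1 after ethanol without EtOH 1 or 4OHT_Rosi 3, and at an unadjusted p under 0.05 it raised 2 and 0.

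Many members of the NF-kappaB system, and some genes on a list of inducing cytokines and their receptors, were lower with rosiglitazone. The shares over all genes were 16.3% lower and 14.4% higher after ethanol, and 12.1% lower and 11.6% higher after 4-hydroxytamoxifen. Of 17 NF-kappaB components and feedback targets 9 fell and 1 rose after ethanol (median -0.17), and 8 fell and 1 rose after 4-hydroxytamoxifen (median -0.20). The adhesion molecule Vcam1 fell (-1.31 and -0.68), as did Icam1 (-0.86 and -0.59), while Tnfaip3, a feedback inhibitor, rose by 0.66 and 0.45. After 4-hydroxytamoxifen 0 of the 17 were called by limma without rosiglitazone (1 lower without EtOH 1), where 1 was higher and 3 lower at an unadjusted p under 0.05. With rosiglitazone 2 were called higher, Vcam1 (0.45) and Nfkbia (0.26), and 0 lower, beside 4.65% and 3.38% of all genes. At an unadjusted p under 0.05 there were 2 higher and 2 lower, and the list median was -0.05. The called count of 2 was 1 without EtOH 2 or 3, any 1 of the 4OHT arrays or EtOH_Rosi 1 or 3. It was 0 without EtOH_Rosi 2, 4OHT_Rosi 1 or 4OHT_Rosi 3, the last of which left 1 lower. Among 13 inducing cytokines and receptors, 6 fell with rosiglitazone in each background and 1, Il1a, rose (0 rose without EtOH 1 or 2 or EtOH_Rosi 1 or 2 in the first, or without 4OHT 1 or 4OHT_Rosi 3 in the second). Il1a was at a low level, 5.1 to 5.7 over the 12 arrays, where the median gene mean was 6.6. The interleukin 1 receptor Il1r1 fell (-1.28 and -1.02), as did Il6, an inflammatory cytokine (-1.85 and -1.22). Tnf fell after ethanol only (-0.34), and the other listed genes that fell were receptors. Under rosiglitazone Il6 was 1.08 higher after 4-hydroxytamoxifen (adjusted p = 0.02806), a call lost without EtOH_Rosi 1 or 3, and 0.66 higher without 4OHT_Rosi 3. Il17ra, the interleukin 17 receptor, was 0.43 higher in that comparison and 0.34 higher without rosiglitazone, the latter call being lost without EtOH 3, 4OHT 1 or 4OHT 3. Il6ra was lower (-0.55) under rosiglitazone, and without rosiglitazone 1 or 2 of the 13 were called lower without 4OHT_Rosi 1 or 4OHT_Rosi 3.

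Among 26 other chemokine ligands, Ccl3 was the only 1 called without rosiglitazone (2 were called lower without EtOH 3, EtOH_Rosi 1 or 2, or 4OHT_Rosi 1 or 3, and 1 higher without any 1 of the 4OHT_Rosi arrays). Under rosiglitazone 4 were higher after 4-hydroxytamoxifen, Ccl11, Ccl9, Ccl6 and Ccl8, and 2 lower, Ccl27a (-0.65), a skin chemokine, and Cxcl13 (-0.57), which attracts B cells. Over all genes 3.91% were called in the comparison without rosiglitazone, and 4.65% were called higher and 3.38% lower with it. Rosiglitazone lowered 10 of these ligands after ethanol and 8 after 4-hydroxytamoxifen, beside 16.3% and 12.1% of all genes. The list medians were -0.10 in both cases. Cxcl13 fell (-0.94 and -1.89), as did Cxcl16, which exists as a membrane-bound and a shed form (-0.82 and -0.75). After 4-hydroxytamoxifen 1 ligand rose, Ccl24 (0.22, lost without 4OHT 1 or 2 or 4OHT_Rosi 1 or 3), and after ethanol 0 rose, or 1 without EtOH_Rosi 3. Ccl24 was at a low level, 5 to 5.35 over the 12 arrays, where the median gene mean was 6.6. The list medians in the 4-hydroxytamoxifen comparisons were -0.01 and 0.08.

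Of 22 measured chemokine receptors, 1 was lower in each 4-hydroxytamoxifen comparison, Ccr1 (-0.40) without rosiglitazone and Ackr2 (-0.53) with it, where 3 were lower without 4OHT_Rosi 3. Of all genes 1.79% and 3.38% were called lower in these comparisons. Ccr1 was at a low level, 4.58 to 5.11 over the 12 arrays, where the median gene mean was 6.6. Ackr2 takes up and degrades inflammatory CC chemokines such as Ccl2, and it rose by 0.78 with rosiglitazone after ethanol (adjusted p = 5.21e-05). With rosiglitazone after ethanol 2 receptors rose, Ackr2 and Cxcr5 (0.28), and 3 fell, Cxcr4, Ackr3 and Ccr7 (-0.21). Of all genes 14.4% were called higher and 16.3% lower there, so these counts out of 22 were not above the general share. The count of 2 was 1 without any 1 of EtOH 1 or 3, the 4OHT arrays or EtOH_Rosi 2 or 3, and the count of 3 was 1 without EtOH 2, EtOH 3 or EtOH_Rosi 2. After 4-hydroxytamoxifen Cxcr4, Ackr3 and Ccrl2 (-0.30, lost without 4OHT 1 or 2 or 4OHT_Rosi 3) fell and Ccr1 rose (0.26, lost without 4OHT 1 or 2 or 4OHT_Rosi 2). Here 12.1% of all genes were called lower and 11.6% higher, so the receptor counts were near or below the general share. Ccr2, the receptor of Ccl2 and Ccl7, lay at 5.17 to 5.49 over the 12 arrays, Cxcr3, the receptor of Cxcl9 and Cxcl10, at 6.16 to 6.57 and Cx3cr1 at 6.79 to 7.35, and none of these 3 was called in the 4 comparisons.

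To place the chemokine patterns among all genes, the root mean square difference of centred log2 values over the 12 arrays was taken as a measure of likeness. The gene nearest to Ccl2 was Ccl7 (0.13), followed by Ccn2 (0.17) and Lrrc32 (0.19), and the gene nearest to Ccl7 was Ccn2 (0.10), ahead of Ccl2. Nearest to Cxcl9 were Gbp3 (0.12), Herc6 (0.15) and Oas2 (0.21). Cxcl10 was nearest to Gbp5 (0.27), Ifit2 (0.28) and Trim21 (0.31), and Ccl5 to Apol9a (0.27), Ddx60 (0.28) and Bst2 (0.29). For Cxcl12 the nearest were Tbc1d2b (0.08), Cygb (0.09) and Il1r1 (0.09), and for Cxcl14 Fam20a (0.18), Col8a1 (0.19) and Adgra2 (0.24). Cxcl1 was nearest to Chpf (0.12), Impact (0.12) and Cd302 (0.13), Cxcl5 to Pir (0.11), Robo1 (0.12) and Rftn1 (0.13), and Cx3cl1 to Rab19, Asrgl1 and Nr4a1 (0.10 each). The distances of Cxcl10 and Ccl5 to their nearest genes were larger than those of the other 8 chemokine genes, in a measure that also grows with the spread between arrays of 1 group.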

How the data were processed

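RNA from the cultures was read on 12 Affymetrix arrays. The authors deposited 1 log2 value for each of 41345 probe sets and array. The submitters' processing notes name Affymetrix Expression Console. No source used here gives its version, summary method or normalization. The log2 scale was read from the values, 3.05 to 13.91. Arrays give no read depth, and their number limits the precision.

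Of the probe sets, 23521 carried 1 gene symbol in GEO's platform annotation, 1814 several and 16010 none, and 23328 of the first matched RefSeq. The brightest probe set by mean over 12 arrays stood for each of 22180 genes. Group means were fitted with limma 3.58.1 in R 4.3.3 (lmFit, eBayes, 8 residual degrees of freedom), with Benjamini-Hochberg adjustment over all genes and a threshold of 0.05, for 5 contrasts including the interaction. Errors are SE, and intervals are 95%. The fit was run on simulated data with independent noise and few changed genes, for the 4-hydroxytamoxifen contrasts only. The rosiglitazone contrasts and the interaction were not simulated. Figures and tables used Python 3.11.15 and matplotlib 3.10.9.

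Text names all 10 chemokine genes, Prdm16, the 3 genes most like each, and up to 3 called genes of each list and contrast with the smallest p. Other names were chosen after their values were seen. There were 5 lists (other ligands, receptors, NF-kappaB, interferon factors, cytokines) and 7 marker lists. Members and lists were chosen with earlier results of these data known. Alternatives were a replicate block, only the groups compared, quantile normalization, a filter on dim genes, the mean of a gene's probe sets, a trended robust prior, array weights, and leaving out each array.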

Additional observations from a re-analysis of the deposited data

Results flagged for a closer look

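For 7 listed genes other than the 10 chemokine genes, the 4-hydroxytamoxifen effect differed between cultures with and without rosiglitazone, by limma's interaction term (effect with minus effect without, log2). Ccl6 differed by 0.77 (adjusted p = 0.007759), a call kept without each of the 12 arrays in turn. Its arrays were 10.65, 10.65 and 10.59 in EtOH, 10.40, 10.35 and 10.27 in 4OHT, 9.68, 9.39 and 9.49 in EtOH_Rosi, and 9.96, 9.93 and 10.10 in 4OHT_Rosi, so 4-hydroxytamoxifen arrays were lower without rosiglitazone and higher with it. Ccl11 differed by 1.04 (adjusted p = 0.04368, lost without 10 of the 12 arrays, each in turn), Ccl3 by 0.74 (0.0365, lost without 9) and Ccl9 by 0.53 (0.0227, lost without 8). Cxcl13 differed by -0.95 (adjusted p = 0.02409, lost without 9 of the 12 arrays) and the scavenger receptor Ackr2 by -0.78 (0.03178, lost without 9). Kdr, a receptor of vascular endothelial growth factor on the endothelial marker list, differed by 0.61 (adjusted p = 0.03795, lost without 11 of the 12 arrays). Groups of 3 arrays were too small to test for outlying samples.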

How the results depend on the processing

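Of 50 log2 differences (10 chemokine genes in 5 contrasts), 20 were called, and 16 of these kept their call under all alternatives that gave a value. The other 4 were Cxcl10 in 4OHT against EtOH, Cxcl9 in EtOH_Rosi against EtOH, and Ccl2 and Ccl7 in 4OHT_Rosi against 4OHT, and 0 called differences reversed. Chemokine genes called numbered 3 in 4OHT against EtOH (5 in a fit of only these groups, 2 to 3 leaving out 1 array), 5 in 4OHT_Rosi against EtOH_Rosi (5 to 6), 8 in EtOH_Rosi against EtOH (7 to 8) and 4 in 4OHT_Rosi against 4OHT (7 with array weights, 2 to 7). In the last the count was 2 without 4OHT 1 or 4OHT_Rosi 2 and 7 without 4OHT_Rosi 3. The interaction was called for 0 by limma, and for 1, Ccl2, with the filter on dim genes, the trended robust prior or array weights, and 0 to 1 leaving out 1 array. Over all genes 868 were called in 4OHT against EtOH (2242 with array weights, 475 to 1059 leaving out 1 array) and 1782 in 4OHT_Rosi against EtOH_Rosi (829 with only these groups, 1182 to 1712). The counts were 6814 (5857 to 7000) and 5267 (4174 to 5371) for rosiglitazone, and 223 for the interaction (381 with the dim filter, 393 with the robust prior, 396 with array weights, 51 to 331).

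The labels do not say whether the replicate numbers pair the arrays. Deviations from group means correlated at -0.24 to 0.08 over 18 same-number pairs and at -0.16 to 0.32 over 36 different-number pairs. Of 12 arrays, 0 correlated best with their own number. This shows no shared effect of the numbers, and a pairing with little shared effect would not be seen this way. With a replicate block 2 chemokine genes were called in 4OHT_Rosi against 4OHT, and 116 genes for the interaction.

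Uncalled differences that changed sign are given with their range when 1 array was left out. In 4OHT against EtOH they were Ccl2 (-0.063 to 0.032, above 0 without EtOH 2 at 0.002 and without 4OHT 1) and Cxcl5 (-0.063 to 0.097, below 0 without EtOH 3 at -0.042, 4OHT 2 or 4OHT 3 at -0.003, and at -0.019 with array weights). Under rosiglitazone they were Cxcl12 (-0.175 to 0.025, above 0 without EtOH_Rosi 1 at 0.018 and without 4OHT_Rosi 1) and Cxcl14 (-0.033 to 0.737, below 0 without 4OHT_Rosi 3). For rosiglitazone they were Ccl5 after ethanol (-0.223 to 0.117, above 0 without EtOH_Rosi 3, and 0.027 with quantile normalization) and Cxcl9 after 4-hydroxytamoxifen (-0.155 to 0.005, above 0 without 4OHT 2). The cause was not tested. Cxcl5 was not among the genes kept by the dim filter.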
